A study of Sthenoteuthis oualaniensis with 24 samples.

Results

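In the dwarf form (DF) of the purpleback flying squid Sthenoteuthis oualaniensis (SA), 116 unigenes were abundant in both digestive tissues of mature SA and at least 2-fold lower in both tissues of immature SA. They were 0.169% of the 68627 unigenes assembled for the DF, and 3.17% of the 3658 unigenes that reached the same level in mature SA. A unigene is a transcript sequence assembled from the reads without a genome, and FPKM is its level, the number of sequenced fragments scaled by the length of the transcript and by the size of the library. A unigene was a member if its mean was at least 20 FPKM in the mature intestine (DDI) and in the mature stomach (DDS), and if each of these means was at least 2 times the mean of the immature intestine (DUI) or immature stomach (DUS), after 0.5 FPKM was added to every mean.

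The study compared the intestine and stomach of wild SA caught in the South China Sea, at maturity stages III to V (mature) or I and II (immature). The 4 groups of the DF were DDI and DDS, with DUI and DUS set against them, and each had 3 libraries (12 libraries of the DF, 24 with the medium form, MF). The study's methods name the same mature or immature SAs as the source of both tissues, without saying which animal a library number marks. It is not settled that each library is a separate animal, so every SD and n here refers to libraries, whose spread may be technical. In whole tissue, a change in RNA per cell and a change in the share of a cell type cannot be told apart.

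The squid stomach is a muscular sac in which food is broken up and mixed with enzymes, most of which come from the digestive gland. The intestine carries what is left towards the anus and takes part in absorption and in the secretion of mucus. SA is a fast-growing predator, and a unigene that is higher in both tissues need not belong to digestion. The files pair no unigene ID with a gene name or a sequence, so members are described by their levels, their tissue balance and their IDs only. For the same reason the labelled tissues could not be checked against marker genes, and no functional group could be formed.

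Each member had a cluster number of its own in the assembly. Of the 116 members, 115 were the contig numbered 1 of their cluster, and 3 came from clusters with more than 1 contig (2.59% of members, against 1.84% of all unigenes). The members were therefore not variants of a few assembled clusters, although several unigenes of different clusters can still belong to 1 gene.

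The levels in mature SA were widely spread. The median member had 46.9 FPKM in DDI (20 to 1770 FPKM) and 45.5 FPKM in DDS (20.1 to 3066 FPKM). In immature SA the median was 12.6 FPKM in DUI (0 to 835 FPKM) and 14.2 FPKM in DUS (0.780 to 1410 FPKM). These differences follow from the rule and are given as a description.

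Most members were of moderate level. In DDI, 63 members lay between 20 and 50 FPKM, 31 between 50 and 100 FPKM, 21 between 100 and 500 FPKM and 1 above 500 FPKM. In DDS the same bands held 61, 24, 26 and 5 members. In immature SA, 87 members were below 20 FPKM in DUI and 70 in DUS. These counts follow in part from the rule, which required means at least 2-fold lower in immature SA.

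**Figure D1:**
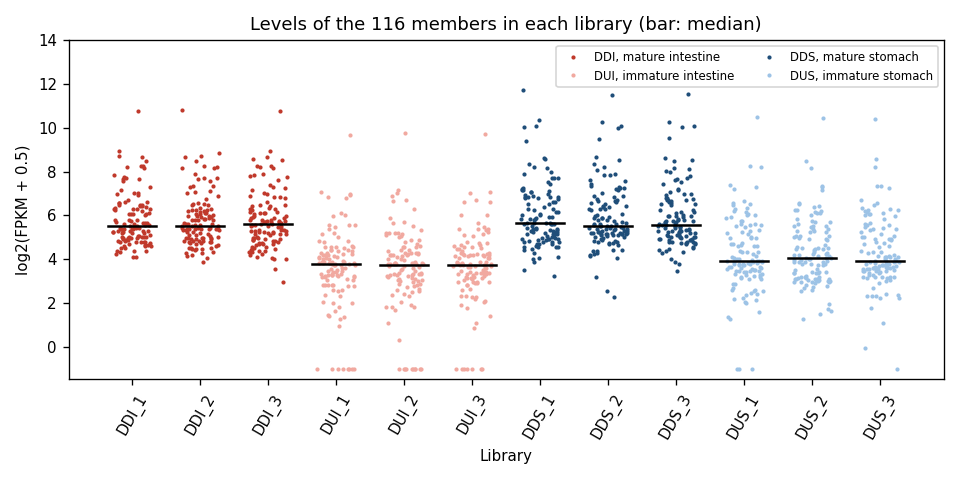
Level of each of the 116 members, as log2(FPKM + 0.5), in the 12 libraries of the DF. Each point is 1 member and the bar is the median of a library. The medians of the libraries were 45.3 to 48.0 FPKM in DDI, 12.8 to 13.0 FPKM in DUI, 45.6 to 49.0 FPKM in DDS and 14.3 to 16.2 FPKM in DUS. The points at the lower edge of DUI and DUS are members listed at 0.

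The members took 1.33% to 1.36% of the summed FPKM in the libraries of DDI, against 0.370% to 0.377% in those of DUI. In the stomach they took 1.66% to 1.86% in DDS and 0.612% to 0.625% in DUS. A smaller share in immature SA follows from the rule and is given as a description. The stomach had the larger share at each stage, and its libraries did not overlap with those of the intestine of the same stage. The sum rested on few members: the 10 most abundant members of a library took 43.9% to 44.4% of it in DDI and 56.1% to 56.8% in DDS, against 53.1% to 54.5% in DUI and 55.1% to 56.6% in DUS.

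The member with the highest mature level (the mean of DDI and DDS), CL17267Contig1, was a unigene of the stomach at both stages. It had 408, 404 and 386 FPKM in DDI, against 23.1, 28.5 and 13.4 FPKM in DUI. In the stomach it had 3407, 2849 and 2942 FPKM in DDS, against 1461, 1399 and 1372 FPKM in DUS. Mature and immature libraries did not overlap in either tissue, and every stomach library was above every intestine library of the same stage.

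CL17267Contig1 was 18.0-fold higher in DDI than in DUI (means of 399 ± 11.6 and 21.7 ± 7.67 FPKM, SD, n = 3) and 2.17-fold higher in DDS than in DUS (3066 ± 299 and 1410 ± 45.9 FPKM, SD, n = 3). In DDS it ranked 41 among all 68627 unigenes, and 87 in DUS. In DDI it ranked 187, against 5239 in DUI. Its log2 ratio of intestine to stomach was -2.94 in mature SA and -5.99 in immature SA. Its log2 ratio of DDS over DUS was 1.12 as deposited and 0.95 after quantile normalization, which is below the 2-fold limit.

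CL39295Contig1 had the largest rise in its less changed tissue among the 101 members with a value above 0 in all 6 immature libraries. In the intestine it had 417, 414 and 402 FPKM in DDI, against 6.32, 5.17 and 4.27 FPKM in DUI. In the stomach it had 42.5, 37.3 and 49.3 FPKM in DDS, against 4.61, 3.31 and 4.24 FPKM in DUS. Mature and immature libraries were far apart in both tissues. The intestine was above the stomach in mature SA, whereas the intestine and stomach libraries of immature SA overlapped.

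CL39295Contig1 was 71.5-fold higher in DDI than in DUI (411 ± 7.57 and 5.26 ± 1.03 FPKM, SD, n = 3) and 9.57-fold higher in DDS than in DUS (43.0 ± 6.01 and 4.05 ± 0.671 FPKM, SD, n = 3). The ratio of the intestine was the largest among the 113 members with a mean above 0 in DUI. It ranked 185 among all unigenes in DDI and 16256 in DUI. The intestine-to-stomach log2 ratio was 3.24 in mature SA and 0.34 in immature SA, and the value of immature SA was -0.32 after quantile normalization, so its direction in immature SA depended on the scaling.

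**Figure D2:**
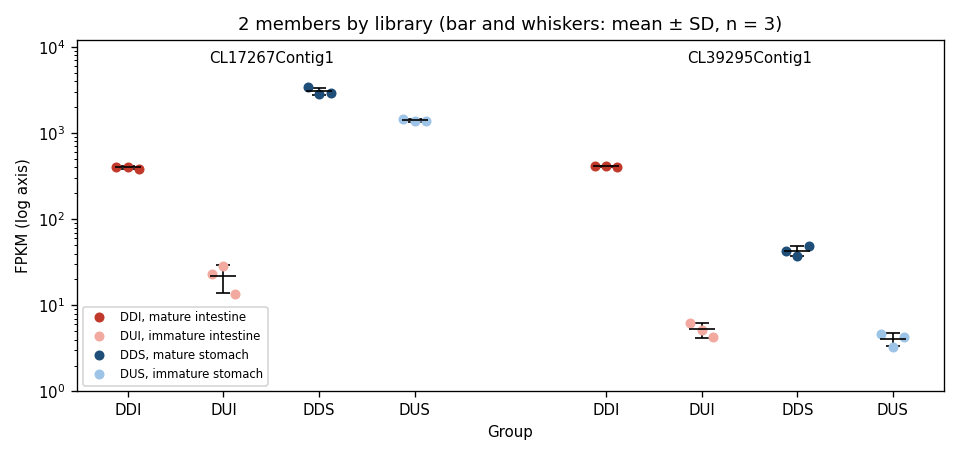
FPKM on a log axis of CL17267Contig1 (left) and CL39295Contig1 (right) in DDI, DUI, DDS and DUS. Points are libraries, and bars with whiskers are the mean ± SD of 3 libraries. In DDI both unigenes were at about the same level (means of 399 and 411 FPKM), while in DDS they had means of 3066 and 43.0 FPKM.

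The next most abundant members showed both tissue patterns. The member second in mature level was higher in the intestine, with 1756, 1803 and 1752 FPKM in DDI and 819, 856 and 830 FPKM in DUI. In the stomach this member had 235, 296 and 249 FPKM in DDS, against 71.2, 64.0 and 65.8 FPKM in DUS. Intestine libraries lay above stomach libraries at both stages, and the ratio of mature to immature was larger in the stomach (log2 ratios of 1.08 in the intestine and 1.95 in the stomach).

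The third member in level was higher in the stomach and had 1316, 1247 and 1237 FPKM in DDS, against 298, 289 and 298 FPKM in DUS. In the intestine it had 210, 206 and 229 FPKM in DDI, against 111, 101 and 97.4 FPKM in DUI. The ratio was again larger in the stomach (log2 ratio of 2.10) than in the intestine (1.06).

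The fourth member in level had 1089, 1024 and 1059 FPKM in DDS, against 300.1, 359 and 381 FPKM in DUS. Its intestine libraries had 203, 189 and 222 FPKM in DDI, against 17.1, 36.5 and 17.0 FPKM in DUI. This was the pattern of CL17267Contig1, a stomach unigene with its larger ratio in the intestine (log2 ratios of 3.09 in the intestine and 1.61 in the stomach).

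The fifth member in level was the one most shifted to the stomach. It had 1051, 1073 and 1076 FPKM in DDS, against 43.7, 45.0 and 46.4 FPKM in DUS. In the intestine it had 35.9, 35.3 and 27.7 FPKM in DDI and every library of DUI listed it at 0. Its log2 ratio of DDI over DDS was -4.99, the lowest of all members. No ratio is given against DUI, where the value at 0 leaves it to the pseudocount.

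In all, 15 members were listed at 0 in at least 1 immature library. Of these, 14 were at 0 in a library of DUI and 4 in a library of DUS. Listed at 0 in every library of DUI were 3 members, and none was at 0 in every library of DUS. Beside the fifth member in level, the 3 included a member with 29.1, 45.2 and 26.2 FPKM in DDI and one with 29.7, 17.7 and 31.6 FPKM in DDI. No member was listed at 0 in a mature library.

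As deposited, the size of the rise was larger in the intestine for most members. The median log2 ratio of mature to immature was 1.76 in the intestine (3.38-fold) and 1.5 in the stomach (2.82-fold). Among all 3658 unigenes at the same level in DDI and DDS, the medians were 0.07 in the intestine and 0.13 in the stomach. At least 4-fold differences were found for 44 members in the intestine and for 25 in the stomach, and for 16 in both. The 44 include the 3 members listed at 0 in every library of DUI, whose ratios depend on the pseudocount. No share over all unigenes was set beside these counts. The values of both tissues were used by the rule and are not tested.

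**Figure D3:**
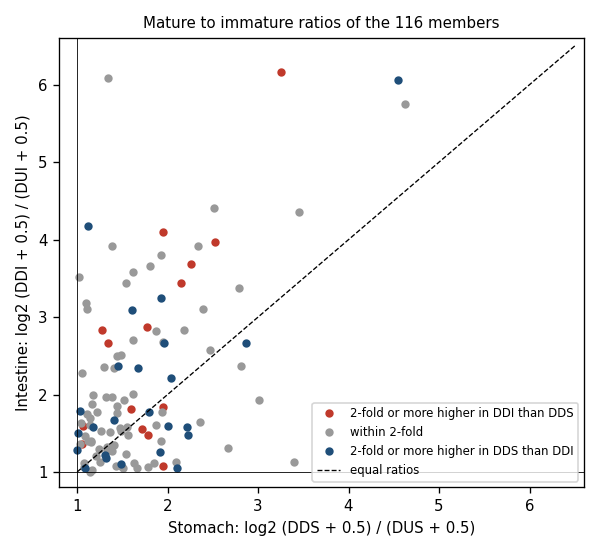
Log2 ratio of mature to immature SA in the intestine (vertical axis) against the stomach (horizontal axis) for the 116 members, with 0.5 FPKM added to each group mean. Colours give the tissue balance in mature SA, solid lines the limit of the rule (1) and the dashed line equal ratios. Of the members, 74 lie above the dashed line and 42 below it. The 3 members listed at 0 in every library of DUI have values of 5.75 to 6.09 on the vertical axis that depend on the pseudocount.

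The ratio was larger in the intestine for 74 members and larger in the stomach for 42. It was within 2-fold of that of the other tissue for 83 members, at least 2-fold larger in the intestine for 29 and at least 2-fold larger in the stomach for 4. The 4 members with the larger ratio in the stomach included the third member in level. Another of them had 63.9, 58.6 and 70.4 FPKM in DDS, against 4.75, 7.77 and 4.50 FPKM in DUS, while its intestine libraries had 47.8, 42.3 and 21.9 FPKM in DDI and 11.2, 20.9 and 18.3 FPKM in DUI.

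The excess of the intestine was not stable to scaling. With the median of ratios as scaling, the median log2 ratio of the members was 1.74 in the intestine and 1.75 in the stomach. This scaling moved the stomach ratios of all tested unigenes by a median of 0.22 on the log2 scale and those of the intestine by -0.01. Quantile normalization gave 1.86 in the intestine and 1.43 in the stomach.

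The 16 members with at least 4-fold differences in both tissues were of each kind in mature SA: 9 were within 2-fold between the tissues, 4 were higher in the intestine and 3 in the stomach. One of them had 121, 117 and 113 FPKM in DDI, against 8.85, 8.76 and 8.36 FPKM in DUI. In the stomach the same member had 48.3, 45.7 and 44.9 FPKM in DDS, against 11.1, 8.67 and 8.16 FPKM in DUS. Another was higher in the stomach, with 82.7, 107 and 107 FPKM in DDS, against 13.1, 13.3 and 13.0 FPKM in DUS. Its intestine libraries had 26.6, 28.2 and 29.1 FPKM in DDI, against 2.61, 5.55 and 3.81 FPKM in DUI. In both members the 4 groups of libraries were separate by stage within each tissue.

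The libraries of mature SA lay above those of immature SA without overlap in both tissues for 107 of the 116 members. Over all unigenes tested in both tissues this was found for 4.97%, and for 20.1% of the 3658 unigenes at the level of the rule. In limma on log2(FPKM + 0.5), with an adjusted p of 0.05 (Benjamini-Hochberg) and an absolute log2 fold change of at least 1, 98 members passed as higher in DDI than in DUI, against 5.74% of all unigenes tested and 8.34% of those at the level. In the stomach 102 members passed as higher in DDS than in DUS, against 3.17% of all tested and 6.15% of those at the level. The rule chose the members on these ratios, so nothing is read from these counts.

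By tissue, 115 members did not overlap in the intestine (15.4% of all tested) and 108 in the stomach (10.6%). The remaining 9 members overlapped in 1 tissue, 8 of them in the stomach and 1 in the intestine. The mature stomach libraries of these 8 were uneven, and for some the immature ones were too. One of the 8 had 39.3, 20.3 and 13.1 FPKM in DDS, against 0, 17.2 and 15.7 FPKM in DUS. One such member had 39.0, 5.42 and 75.6 FPKM in DDS, against 2.02, 8.61 and 12 FPKM in DUS. Another had 18.8, 48.8 and 14.1 FPKM in DDS, against 3.64, 10.8 and 16.9 FPKM in DUS. The member that overlapped in the intestine had 24.1, 23.6 and 27.5 FPKM in DDI, against 9.52, 0 and 24.1 FPKM in DUI.

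The spread between libraries is given by the coefficient of variation (CV). The median CV of the members was 10.7% in DDI, 24.2% in DUI, 18.5% in DDS and 14.1% in DUS. Over the 3658 unigenes, which include the members and were not matched to their levels, it was 5.99% in DDI, 6.48% in DUI, 10.3% in DDS and 4.90% in DUS. DDS_1 differed from the mean of the other libraries of DDS by a median of 22.9% over the members, against 13.4% for DDS_2 and 17.5% for DDS_3.

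The depth behind the values, as estimated from low values, was uneven in the stomach. Low FPKM values were taken to recur in steps of single reads. The ratio at which low values of libraries of a group recur was then read as an estimate of their relative depth. Of the unigenes compared, 13.5% lay at that ratio for DUS_1 and 17.5% for DDS_3, against 4.40% for DDS_1 and 42.9% for DDI_1. Relative to the library numbered 2 of its group, the depth was 1.16 and 0.844 for DDI_1 and DDI_3, and 1.01 for both DUI_1 and DUI_3. It was 0.398 for DDS_3, 0.411 for DUS_1 and 1.00 for DUS_3, and it could not be settled for DDS_1. Of all unigenes, DDI listed 34.4% to 39.2% at 0 and DUI 31.9% to 32.3%, while DDS listed 56.2% to 68.3% at 0 and DUS 35.9% to 45.6%. Without unigene lengths the value of a member could not be turned into reads.

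Values near the limits of the rule show how close the choice was. The member with the smallest ratio had 112 FPKM in DDS and 55.9 FPKM in DUS (2-fold). The nearest unigene outside had 107 FPKM in DDS and 53.4 FPKM in DUS (1.99-fold). By level, the last member inside had 20 FPKM in DDI and 3.54 FPKM in DUI, whereas the first outside had 19.9 FPKM in DDI and 0.871 FPKM in DUI. Another unigene just outside had 148 FPKM in DDI and 7.96 FPKM in DUI but 19.8 FPKM in DDS and 5.88 FPKM in DUS.

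The balance between the tissues, which the rule does not set directly, had more members on the stomach side as deposited. In mature SA 15 members were at least 2-fold higher in DDI than in DDS, 77 were within 2-fold, and 24 were at least 2-fold higher in DDS. In immature SA 10 members were at least 2-fold higher in DUI than in DUS, 67 were within 2-fold, and 39 were at least 2-fold higher in DUS. The median log2 ratio of intestine to stomach was -0.19 in mature SA and -0.57 in immature SA, against 0.02 at both stages over the 3658 unigenes at the level of the rule.

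Set against these 3658 unigenes, the share of members on the stomach side was larger. In mature SA 12.9% of the members were at least 2-fold higher in the intestine, against 10.2% of the unigenes at the level, and 20.7% were higher in the stomach, against 9.98%. In immature SA 8.62% were higher in the intestine, against 7.63%, and 33.6% in the stomach, against 11.0%. The ratios of immature SA are linked to the choice, since a low value in DUI or DUS helped a unigene to become a member. Over all tested unigenes, at whatever level, 55.8% were at least 2-fold higher in DDI than in DDS and 7.31% higher in DDS. In immature SA 41.8% were at least 2-fold higher in DUI and 7.48% in DUS.

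In limma, 14 of the 116 members passed as higher in DDI than in DDS and 24 as higher in DDS, against 34.7% and 3.07% of all 43098 unigenes tested. Among the unigenes at the level of the rule, 9.98% passed as higher in DDI and 9.81% as higher in DDS. In immature SA 9 of the 115 members tested passed as higher in DUI than in DUS and 32 as higher in DUS, against 7.52% and 10.6% of the unigenes at the level (24.3% and 4.86% of all tested). The remaining member was below a mean of 0.5 FPKM over DUI and DUS. The members were chosen from the values of the same libraries.

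The scaling moved these counts, but not alike for the members and for all unigenes. Quantile normalization changed which tissue had more of all unigenes, while more members stayed on the stomach side. After quantile normalization, 13 members passed as higher in DDI and 31 as higher in DDS, while 5876 and 7372 of all unigenes did. With the median of ratios these were 8 and 44 members, and 10764 and 2846 of all unigenes, against 14946 and 1323 of all unigenes as deposited. By size, the median of ratios placed 6.90% of the members at least 2-fold higher in DDI, against 3.09% of the unigenes at the level, and 40.5% at least 2-fold higher in DDS, against 27.8%. Under this scaling the share of members was thus above that of the unigenes at the level on both sides, and no lean to the stomach relative to them is read from these shares. The median log2 ratio of DDI to DDS was -0.80 for the members, against -0.59. In immature SA 6.03% of the members were at least 2-fold higher in DUI, against 4.35%, and 45.7% in DUS, against 17.7%. The median of ratios shifted the ratio of DDI to DDS by a median of -0.45 on the log2 scale over all tested unigenes, and quantile normalization by -0.92. For DUI over DUS, these shifts were -0.27 and -0.68.

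**Figure D4:**
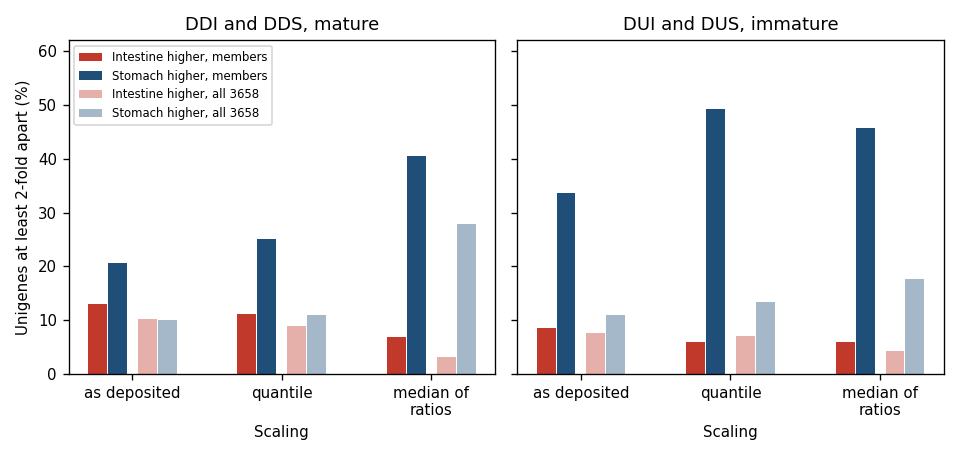
Share of unigenes (%) at least 2-fold higher in the intestine (red) or in the stomach (blue), in mature SA (left panel) and immature SA (right panel), under 3 scalings. Dark bars are the 116 members and pale bars the 3658 unigenes of at least 20 FPKM in DDI and DDS. As deposited, 20.7% of the members and 9.98% of the 3658 unigenes were higher in the stomach of mature SA, and 33.6% and 11.0% in that of immature SA.

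For most members the side of the tissue balance was the same at both stages. No share over the 3658 unigenes was set beside the counts of sides, and low values in DUI or DUS were part of the choice. Within 2-fold between the tissues at both stages were 56 members, on the stomach side at both stages were 21, and on the intestine side at both stages were 6. Of the 39 members at least 2-fold higher in the stomach of immature SA, 17 were within 2-fold in mature SA and 1 was at least 2-fold higher in the intestine. Of the members within 2-fold in immature SA, 8 were on the intestine side in mature SA and 3 on the stomach side. The remaining 4 were on the intestine side in immature SA and within 2-fold in mature SA, and no member changed from the intestine side to the stomach side. Across the members, the log2 ratios of both stages had a Pearson correlation of 0.74 and a Spearman correlation of 0.67. The 2 ratios share no library, but all 4 groups were used by the rule. Over the 3658 unigenes the Pearson correlation was 0.72, near that of the members, so the likeness of the stages is not particular to the members.

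**Figure D5:**
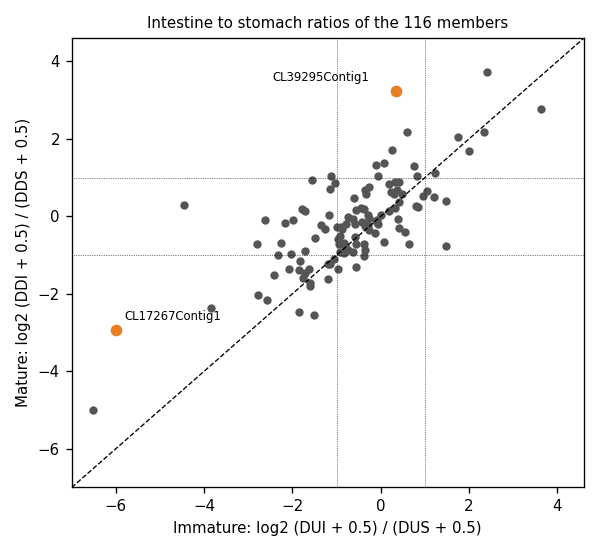
Log2 ratio of intestine to stomach in mature SA (vertical axis) against immature SA (horizontal axis) for the 116 members, with 0.5 FPKM added to each group mean. Dotted lines mark 2-fold and the dashed line marks equal ratios. CL17267Contig1 lies at -2.94 on the vertical and -5.99 on the horizontal axis, and CL39295Contig1 at 3.24 on the vertical and 0.34 on the horizontal axis.

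The levels differed between these sides. The 15 members on the intestine side in mature SA had median levels of 152 FPKM in DDI and 24.4 FPKM in DUI, with 42.4 FPKM in DDS and 10.6 FPKM in DUS. The 24 members on the stomach side had medians of 46.7 FPKM in DDI and 15.0 FPKM in DUI, with 121 FPKM in DDS and 45.1 FPKM in DUS. The 77 members within 2-fold had medians of 41.7 FPKM in DDI and 12.4 FPKM in DUI, with 40.4 FPKM in DDS and 12.5 FPKM in DUS.

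The strongest intestine side in mature SA was that of a member with 283, 290.4 and 297 FPKM in DDI and 23.1, 19.0 and 22.4 FPKM in DDS. In immature SA it had 47.2, 44.8 and 43.8 FPKM in DUI and 8.62, 7.37 and 8.51 FPKM in DUS. Its log2 ratio of intestine to stomach was 3.72 in mature SA and 2.40 in immature SA, without overlap at either stage. Another member on the intestine side at both stages had 361, 360.4 and 363 FPKM in DDI and 112, 113 and 110.1 FPKM in DDS. In immature SA that member had 132, 130.0 and 128 FPKM in DUI and 30.8, 32.6 and 33.2 FPKM in DUS.

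By libraries, 28 members had all libraries of DDI above those of DDS, and 42 had all libraries of DDS above those of DDI (35.5% and 31.1% of the 3658 unigenes at the level, 46.0% and 6.75% of all tested). In immature SA these were 20 and 48 members (37.8% and 35.7% of the 3658, 40.6% and 10.4% of all tested). For 46 members the order of the tissues was the same at both stages without overlap, with the intestine above for 14, against 25.2% of the 3658 unigenes, and the stomach above for 32, against 21.2%. For 7 members the order was opposite, against 8.2% of the 3658 unigenes, and 4 of them had the intestine above the stomach in mature SA and below it in immature SA, against 4.59%.

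Unigenes typical of 1 tissue were also read in the other, with lists set up after the data were seen. In a list chosen on DUS_1 and DUI_1 alone, 252 unigenes had at least 20 FPKM in DUS_1 and an 8-fold higher value there than in DUI_1. Of these, 81 (32.1%) were at least 2-fold higher in DDI than in the other libraries of DUI and 40 were at least 2-fold lower, with a median log2 ratio of 0.28. The list held 4 of the 116 members. In the opposite list of 424 unigenes typical of the intestine, 24 (5.66%) were at least 2-fold higher in DDS than in the other libraries of DUS and 189 were at least 2-fold lower. This list held 2 members. The median levels of the lists in the other tissue were low, at 3.97 FPKM in DDI and 0.41 FPKM in DDS. No share over unigenes of like level was set beside these counts, and a lower value in the other immature tissue was part of the choice. The part of RNA from neighbouring tissue in these values was not tested.

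In size, the set was between those of the mirrored rule and of the MF. Turned round, with at least 20 FPKM in DUI and DUS and 2-fold lower values in DDI and DDS, the rule found 55 unigenes of the DF. The rule used here found 614 of the 66837 unigenes of the MF, and the mirrored rule 455. The assemblies have different IDs, so no member was matched to a unigene of the MF, and these counts were not tested.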

How the data were processed

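Intestine and stomach libraries of SA were sequenced by the authors, the reads were trimmed, and Trinity was run without a genome for each form. The deposited values are FPKM of every unigene in each library. For read placement and for FPKM itself, the program is not given in the sources. The study's methods name a test on counts, but counts were not used here, so a test for log values was chosen. Groups follow the sample labels.

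Means, ratios and figures were made in Python 3.11.15. A log2 ratio is that of group means after adding 0.5 FPKM, which understates the change of low unigenes. Each comparison was fitted in limma 3.58.1 (R 4.3.3, 2-sided, with a mean-variance trend) to its 6 libraries, over unigenes that averaged 0.5 FPKM or more, and p was adjusted over all of them (Benjamini-Hochberg). This step was tested on simulated data in which all libraries had equal depth, unlike those of the stomach. No p-value is given for a single unigene. Same-numbered libraries of DDI and DDS, tissues of the same set of SAs, all correlated above 0.1 in their deviations from the group means (0.359, 0.166 and 0.152). Those of DDI and DUS, from different animals, did so too (0.530, 0.271 and 0.169). The correlations thus cannot show that a number marks 1 animal. The numbers were still taken as pairs for a block. The fit with this block gave 14 members higher in DDI and 23 in DDS, against 14 and 24 in the unpaired fit that is reported. Relative depth was estimated from values of 0.02 to 2 FPKM.

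The members, lists and tests were chosen with earlier results of these data known. The named unigenes are the member highest in mature SA, and the member with the largest rise in its less changed tissue among those above 0 in all immature libraries. Other members are given by rank, and those with no rank were chosen after their values were seen. Marker and pathway lists could not be applied without gene names. Alternatives were other pseudocounts, filters, scalings, limits of the rule, a block on library numbers, 1 fit over 12 libraries, and merged or left-out libraries.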

Additional observations from a re-analysis of the deposited data

Results flagged for a closer look

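The order of the tissues was opposite at the 2 stages, without overlap between libraries, for 7 members. The difference between the stages was not tested. In 4 of them the intestine was above the stomach in mature SA and below it in immature SA, and in 3 it was the other way round. Over the 3658 unigenes of at least 20 FPKM in DDI and DDS such a change was found for 8.2%, a share near that of the members. One member of the first kind had 200.1, 209 and 212 FPKM in DDI and 134, 99.6 and 91.8 FPKM in DDS. In immature SA it had 18.9, 16.5 and 17.6 FPKM in DUI and 64.1, 45.3 and 50.5 FPKM in DUS.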

How the results depend on the processing

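The number of members depended on the limits of the rule. It was 237 with a level of 10 FPKM, 35 with 50 FPKM, 335 with a ratio of 1.5 and 38 with a ratio of 3. Other settings gave 107 to 164 members: quantile normalization gave 107, of which 98 were among the 116, and the median of ratios gave 164, of which 102 were among the 116. Without 1 library, the rule gave 110 to 126 members. In the tissue comparison of mature SA, the median of ratios gave 8 members higher in DDI and 44 higher in DDS, against 14 and 24 as deposited. The cause was not tested. For CL39295Contig1 the log2 ratio of DUI over DUS was -0.32 after quantile normalization.

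Without 1 library, limma gave 80 to 93 members higher in DDI than in DUI and 87 to 98 higher in DDS than in DUS (2110 to 4348 and 728 to 1294 of all unigenes). In the tissue comparisons it gave 14 to 16 higher in DDI and 21 to 26 higher in DDS, and 9 to 10 higher in DUI and 28 to 35 higher in DUS. With the 3 libraries of DUI merged to 1, an alternative chosen after seeing the data, 74 members (1205 of all unigenes) were higher in DDI than in DUI, and 7 were higher in DUI and 28 in DUS. The lone library is assumed to vary like those of the other group. With DDI_1 and DDI_2 merged, likewise added, 85 members (2123 of all unigenes) were higher in DDI than in DUI.

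Same-numbered libraries of different groups deviated together in part, with correlations of -0.015 to 0.530 (-0.426 to 0.305 for other numbers). The 3 correlations were each above 0.1 for DDI with DDS, DDS with DUS and DDI with DUS, though mature and immature SAs were different animals, and below 0.1 in every comparison with DUI. In 11 of 18 cases a library correlated best with its own number. With the replicate block, 90 members were higher in DDI than in DUI and 103 in DDS than in DUS (1988 and 786 of all unigenes, against 3138 and 1051 without it), and the tissue comparisons had 14 higher in DDI, 23 in DDS, 9 in DUI and 31 in DUS. Over all unigenes the block moved DDI above DUI, DUI above DDI (1734, against 3547) and DUS above DDS (4012, against 6743) by over 1.5 times, and no count of members by as much. Quantile normalization gave 5249 of all unigenes higher in DDS than in DUS.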
